A study of Mus musculus with 18 samples.

Results

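Whole larynges of male C57BL6/J mice, 8 to 9 weeks old, were compared between cigarette smoke and e-cigarette aerosol. The smoke mice had inhaled smoke of 3R4F, a research reference cigarette, and the e-cigarette mice the aerosol of JUUL with Virginia tobacco flavour. Both groups breathed in a whole-body chamber for 1 hour a day, 5 days a week, over 4 weeks. The comparison used the 6 smoke and 6 e-cigarette libraries, 12 of the 18 in the series, and the 6 room air libraries served only as background values. All 17121 of 54532 listed genes that passed a filter on low counts were tested, 15040 of them protein coding. Whole-body chambers also expose fur and the mouth, each exposure is 1 product at 1 schedule, and the labels do not say whether a library is 1 animal, so p-values measure the spread between these samples only.

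The larynx joins pharynx and trachea and holds ciliated, secretory and stratified squamous epithelium, submucosal glands, cartilage and voluntary muscle. Smoke from burnt tobacco carries polycyclic aromatic hydrocarbons, which bind the aryl hydrocarbon receptor (AhR) in the cytosol. The receptor then enters the nucleus, pairs with Arnt and switches on detoxifying cytochromes such as Cyp1a1, together with its own repressor Ahrr. An e-cigarette heats a nicotine solution without burning leaf, so its aerosol and smoke share nicotine but differ in combustion products.

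The libraries differed in tissue content along with exposure. Tg, which encodes the thyroglobulin of thyroid follicles, took 7.30% ± 1.49 of counts in smoke and 0.970% ± 1.37 in e-cigarette (SD, n = 6 each; two-sided exact permutation p = 0.00216, the smallest that 924 splits allow, and 0.00433 adjusted over the 2 shares tested). The range was 5.87% to 9.24% in smoke, 2.69% in e-cigarette 1, 2.77% in e-cigarette 3 and 0.00795% to 0.271% in e-cigarette 2, 4, 5 and 6. Air libraries held 6.13% to 10.2%. The thyroid lies against the larynx, and how much of it stayed on each organ cannot be told apart here from the exposure. Parathyroid hormone transcripts (Pth) exceeded 100 CPM (counts scaled to 1 M per library) in smoke 2, 4 and 5, and in none of the other 9 libraries compared. Mitochondrial transcripts took 4.89% ± 0.235 of counts in smoke and 6.27% ± 0.966 in e-cigarette (SD, n = 6 each; exact permutation p = 0.00649, adjusted 0.00649). Muscle and epithelial markers were present in every library, while genes of liver and testis were too low to test. Smoke libraries held 15.9 to 20.3 M counts and e-cigarette libraries 16.7 to 22.5 M, with 23848 to 24914 genes detected. On the first principal component, which held 38.4% of the variance, every smoke library lay on one side and every e-cigarette library on the other, with e-cigarette 1 and 3 nearest to smoke. Smoke was therefore also compared with e-cigarette 1 and 3 alone, which leaves 2 libraries on one side. A gene called with all 12 libraries and named without a value for this smaller comparison was not called in it, unless it is said to be called in both.

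Smoke and e-cigarette larynges differed in 3455 genes (20.2% of those tested, adjusted p below 0.05), of which 1957 were higher in smoke (11.4%) and 1498 lower (8.75%). Most differences were small: 463 of the higher genes and 92 of the lower ones changed by at least 2-fold. In 1611 genes the 2 groups did not overlap (9.41% of those tested), 1112 of them higher in smoke (6.49%) and 499 lower (2.91%). Against e-cigarette 1 and 3 alone, 312 of 18052 genes were called (1.73%), 285 higher (1.58%) and 27 lower (0.15%). Of these, 297 were called in both comparisons, all 297 in the same direction, which is 8.6% of the first set and 95.2% of the second. The smaller comparison reuses libraries of the first, every smoke library and e-cigarette 1 and 3. A call in both is therefore not independent support. With a thyroid marker score as a covariate no gene was called (1586 genes had an unadjusted p under 0.05, edgeR quasi-likelihood F test), and with 4 tissue scores none was called either (870 genes). Relative to the mean of all 12 libraries, smoke 6 had the lowest thyroid follicle level of its group (1.31, log2 CPM). The highest e-cigarette library, e-cigarette 1, reached only 0.46. The thyroid score is also among the 4 tissue scores. Because the groups did not overlap in thyroid level, neither fit can separate it from exposure. What caused the loss of calls was not tested. Of the 3455 called genes, 41 had the opposite sign with the thyroid score and 220 with the 4 scores. Without smoke 2, 4 and 5, 1201 genes were called, 826 higher and 375 lower. Among genes called higher in smoke, 30.1% had e-cigarette 1 and 3 as the e-cigarette libraries nearest to smoke, and among genes called lower 20.8% did, against 10.3% of all tested genes. Groups of genes are described below by counts and by their median log2 fold change, smoke minus e-cigarette, beside a median over all tested genes of -0.03. In bulk tissue, fewer cells of a type and less RNA per cell cannot be told apart.

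**Figure D1:**
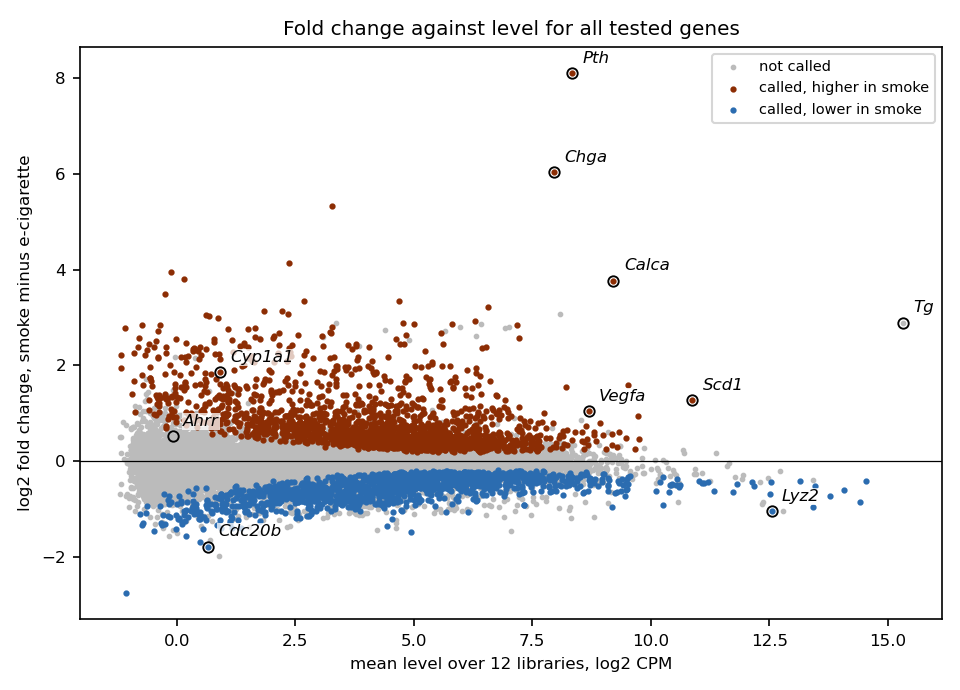
Each point is 1 of 17121 tested genes, with its mean level over 12 libraries on the x axis (log2 CPM) and its log2 fold change, smoke minus e-cigarette, on the y axis. Called genes are coloured by direction; circled genes are named in the text, and Pth (8.10) and Chga (6.03) lie highest, whereas Cdc20b, the lowest circled gene, lies at -1.78.

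The AhR response separated the exposures through a single gene. Cyp1a1 (ENSMUSG00000032315, chromosome 9, 57687928 to 57703824), the cytochrome P450 that oxidises polycyclic aromatic hydrocarbons, ranged over 2.19 to 4.13 CPM (median 2.83) in smoke against 0.671 to 1.04 CPM (median 0.759) in e-cigarette. Smoke exceeded e-cigarette 3.64-fold (log2 fold change 1.86, SE 0.21, adjusted p = 0.000250), every smoke library lay above every e-cigarette library, and the gene was called in each of 12 fits that left out 1 library. The e-cigarette libraries sat at the background of air, which was 0.301 to 1.22 CPM (median 0.672) on a scale fitted to all 18 libraries. E-cigarette 1 and 3, with 0.671 and 0.764 CPM, were the lowest and the 4th lowest e-cigarette libraries, and Cyp1a1 was called against these 2 libraries alone (log2 fold change 2.03, adjusted p = 0.0112). With the thyroid score as covariate its log2 fold change was 1.95 with an adjusted p = 0.221.

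Other AhR genes did not separate the groups. Ahrr (ENSMUSG00000021575, chromosome 13, 74211118 to 74292331), the repressor that competes with AhR for Arnt, ranged over 0.589 to 1.54 CPM (median 1.25) in smoke against 0.522 to 1.22 CPM (median 0.690) in e-cigarette (log2 fold change 0.52, SE 0.29, adjusted p = 0.228). Its groups overlapped, and both lay above air, at 0.175 to 0.449 CPM (median 0.235). Cyp1b1, a related cytochrome, spanned 16.02 to 26.4 CPM (median 23.4) in smoke against 8.11 to 22.4 CPM (median 16.9) in e-cigarette (log2 fold change 0.45, SE 0.21, adjusted p = 0.138), and Tiparp, an ADP-ribosyltransferase that damps AhR, spanned 19.2 to 30.3 CPM (median 24.9) in smoke against 22.1 to 35.8 CPM (median 27.6) in e-cigarette (log2 fold change -0.16, SE 0.13, adjusted p = 0.419). The receptor Ahr itself had a log2 fold change of -0.06 (SE 0.0920) and its partner Arnt one of -0.04 (SE 0.0681). Of 13 AhR targets and partners tested, 1 was higher in smoke, none was lower at an adjusted p below 0.05, and the median was -0.11. The aldehyde dehydrogenase Aldh3a1 had wide values, 205 to 850.5 CPM (median 357) in smoke against 350.3 to 1096 CPM (median 637) in e-cigarette (log2 fold change -0.63, SE 0.37, adjusted p = 0.269). Cyp1a2 had no count in any of the 12 libraries.

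The promoters of Cyp1a1 and Ahrr are shown because they carry GCGTG, in capitals. This is the core of the longer site that the AhR and Arnt pair binds, and the bases beside it were not searched. Each window runs from 250 bases before to 50 bases after the RefSeq start site (build GRCm38.p6), 5′ to 3′ on the gene's strand, and positions count from that site.
Cyp1a1 (chr9:57697363-57697662, plus strand): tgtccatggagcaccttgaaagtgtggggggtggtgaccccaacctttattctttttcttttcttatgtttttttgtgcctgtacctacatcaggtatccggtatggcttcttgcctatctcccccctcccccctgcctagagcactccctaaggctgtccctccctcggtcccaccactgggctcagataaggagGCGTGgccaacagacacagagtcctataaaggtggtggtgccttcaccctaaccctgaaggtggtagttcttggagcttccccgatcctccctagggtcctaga
Ahrr (chr13:74292282-74292581, minus strand): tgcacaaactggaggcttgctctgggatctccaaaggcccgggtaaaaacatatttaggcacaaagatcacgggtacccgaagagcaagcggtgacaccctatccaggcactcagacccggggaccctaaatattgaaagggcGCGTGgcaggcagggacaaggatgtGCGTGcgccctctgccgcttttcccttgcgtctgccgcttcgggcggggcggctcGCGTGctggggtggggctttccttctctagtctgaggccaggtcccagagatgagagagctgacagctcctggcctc
The core stood at -54 in Cyp1a1 and at -107, -82 and -27 in Ahrr, all on the gene's own strand. Searched on both strands, it was present in 6 of 9 AhR-list genes with a window (66.7%), against 9500 of 27025 genes with one (35.2%). A match describes letters only.

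**Figure D2:**
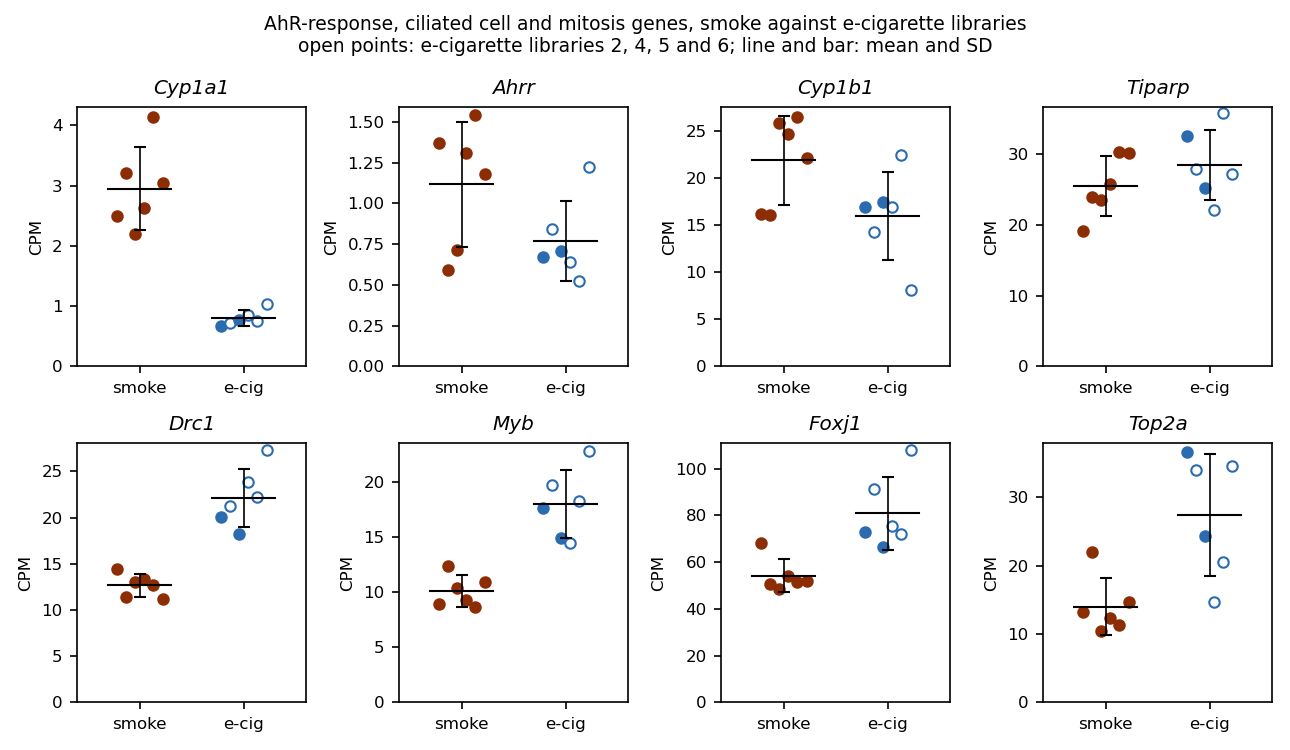
Points are single libraries, with CPM on the y axis starting at 0 and the 2 groups on the x axis; lines and bars are mean and SD over 6 libraries. Cyp1a1, Drc1 and Myb do not overlap between smoke and e-cigarette, whereas Ahrr, Cyp1b1, Tiparp, Foxj1 and Top2a do.

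Antioxidant genes, which the factor Nfe2l2 (NRF2) controls, showed no common direction. Of 42 tested NRF2 and glutathione genes, 4 were higher in smoke and 3 lower, with a median of -0.08. The quinone reductase Nqo1 spanned 17.1 to 36.96 CPM (median 25.5) in smoke against 20.9 to 38.8 CPM (median 31.3) in e-cigarette (log2 fold change -0.24, SE 0.19, adjusted p = 0.404). The glutathione-synthesis enzyme Gclc (log2 fold change -0.17, SE 0.09, adjusted p = 0.177) and the haem oxygenase Hmox1 (log2 fold change -0.54, SE 0.31, adjusted p = 0.248) were not called. Among called members, the transketolase Tkt was higher (log2 fold change 0.70, SE 0.17, adjusted p = 0.00910) and the glutathione transferases Gsta4 (-0.64, SE 0.21, adjusted p = 0.0420) and Gstm2 (-0.43, SE 0.10, adjusted p = 0.00721) lower; reads of the Gstm and Gsta families can be split between near-identical copies. Against e-cigarette 1 and 3 alone, none of the 42 was called.

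Wider xenobiotic metabolism was mixed as well: 10 of 43 tested genes were higher in smoke and 7 lower, with a median of -0.08. Cyp2e1, a cytochrome that oxidises ethanol and small nitrosamines, spanned 114 to 234 CPM (median 171) in smoke against 65.9 to 102 CPM (median 93.5) in e-cigarette, without overlap (log2 fold change 0.90, SE 0.17, adjusted p = 0.00249). The glutathione transferase Gstt3 spanned 29.6 to 46.1 CPM (median 39.1) in smoke against 18.5 to 26.1 CPM (median 23.4) in e-cigarette, also without overlap (log2 fold change 0.74, SE 0.11, adjusted p = 0.000658). Gstt1 (0.65, SE 0.12) and the aldehyde dehydrogenase Aldh2 (0.62, SE 0.15) were higher too, while the retinaldehyde dehydrogenase Aldh1a1 (-0.37, SE 0.10) and the microsomal Mgst3 (-0.39, SE 0.09) were lower. Their adjusted p-values were 0.00252, 0.0103, 0.0166 and 0.00792. The list's median against e-cigarette 1 and 3 was -0.09 with no member called, and Cyp2e1 was not called either (log2 fold change 0.90, adjusted p = 0.157).

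Genes of multiciliated cells, whose beating cilia move mucus, were lower in smoke as a group. Of 34 tested members 29 were called lower and none higher, all 34 had log2 fold changes below 0, the median was -0.70, and in 13 the groups did not overlap. The regulators that commit cells to this fate were among them. Mcidas, a coactivator at the top of the programme, ranged over 0.438 to 2.24 CPM (median 1.58) in smoke against 2.53 to 4.30 CPM (median 3.34) in e-cigarette (log2 fold change -1.21, SE 0.30, adjusted p = 0.0103). Myb, a factor that acts after it, ranged over 8.63 to 12.4 CPM (median 9.80) in smoke against 14.5 to 22.8 CPM (median 17.9) in e-cigarette (log2 fold change -0.83, SE 0.13, adjusted p = 0.000777). For both, the lowest e-cigarette library exceeded the highest smoke library. Foxj1, the forkhead factor of motile cilium genes, ranged over 48.3 to 68.1 CPM (median 51.9) in smoke against 66.7 to 108 CPM (median 74.1) in e-cigarette (log2 fold change -0.58, SE 0.12, adjusted p = 0.00391) and overlapped through smoke 1, the highest smoke library. Air values of Foxj1 were 73.3 to 115 CPM (median 75.3).

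Structural cilium genes followed the same direction. Drc1 (ENSMUSG00000073102, chromosome 5, 30281388 to 30366695), part of the nexin-dynein complex that regulates the beat, ranged over 11.2 to 14.5 CPM (median 12.9) in smoke against 18.2 to 27.3 CPM (median 21.8) in e-cigarette, a difference without overlap (log2 fold change -0.81, SE 0.11, adjusted p = 0.000419). Against e-cigarette 1 and 3 alone it was the 1 called member of the list (log2 fold change -0.59, adjusted p = 0.0486). Cfap44, a cilium protein that tethers inner dynein arms, ranged over 12.7 to 19.3 CPM (median 14.2) in smoke against 19.5 to 44.02 CPM (median 30.7) in e-cigarette (log2 fold change -1.05, SE 0.18, adjusted p = 0.00132). Spag6l, of the central pair, ranged over 8.10 to 10.1 CPM (median 9.06) in smoke against 11.6 to 23.1 CPM (median 17.6) in e-cigarette (log2 fold change -1.002, SE 0.14, adjusted p = 0.000461). The groups did not overlap in either gene. The axonemal dynein heavy chains Dnah5 (log2 fold change -0.79, SE 0.12, adjusted p = 0.000838) and Dnah9 (log2 fold change -0.80, SE 0.14, adjusted p = 0.00135) and the central pair gene Hydin (log2 fold change -0.87, SE 0.15, adjusted p = 0.00132) overlapped through e-cigarette 3, the lowest e-cigarette library in each. Thyroid content moved with the groups, and its part was not tested. E-cigarette 1 and 3 were nearest to smoke in 5 of the 29 called members, beside 20.8% of all genes called lower. In the restricted comparison the list's median was -0.47 beside 0.00 for all genes, and 33 of 34 members were below 0.

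Of the cilium genes, Drc1 and Cfap44 are shown for the core GTTGCC of the X-box that RFX factors bind, in capitals; here it lies on the opposite strand, so the capitals read as its reverse complement.
Drc1 (chr5:30281143-30281442, plus strand): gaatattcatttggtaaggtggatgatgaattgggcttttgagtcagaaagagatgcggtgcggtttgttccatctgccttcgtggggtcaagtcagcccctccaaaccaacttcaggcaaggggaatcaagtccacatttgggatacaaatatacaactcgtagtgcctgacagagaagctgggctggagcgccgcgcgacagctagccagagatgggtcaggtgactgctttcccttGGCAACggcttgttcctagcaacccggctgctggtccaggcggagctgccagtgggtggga
Cfap44 (chr16:44394549-44394848, plus strand): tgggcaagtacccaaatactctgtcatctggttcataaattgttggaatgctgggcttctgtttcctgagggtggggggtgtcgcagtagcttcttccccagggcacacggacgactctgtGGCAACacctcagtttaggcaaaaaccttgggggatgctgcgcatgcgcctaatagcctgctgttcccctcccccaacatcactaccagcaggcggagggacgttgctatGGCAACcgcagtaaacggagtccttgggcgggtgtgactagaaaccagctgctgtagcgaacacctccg
The core stood at -11 in Drc1 and at -129 and -19 in Cfap44. Searched on both strands in the same windows, it was present in 14 of 30 cilium genes with a window (46.7%), among them 11 of 25 that were called lower, against 3821 of 27025 genes (14.1%).

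Genes of the cell cycle and mitosis were lower in smoke too. Of 54 tested genes 15 were called lower and none higher, 50 lay below 0, and the median was -0.49 (-0.54 against e-cigarette 1 and 3). Top2a, the topoisomerase of dividing cells, ranged over 10.4 to 22.01 CPM (median 12.8) in smoke against 14.6 to 36.6 CPM (median 29.2) in e-cigarette (log2 fold change -0.97, SE 0.24, adjusted p = 0.0127); e-cigarette 1, 2 and 6 were the highest libraries and the groups overlapped. E-cigarette 1 and 3 were nearest to smoke in 0 of the 15 called members, beside 20.8% of all genes called lower. Air values of Top2a were 10.1 to 15.9 CPM (median 11.4), close to those of smoke. Prc1, a cross-linker of the spindle midzone, ranged over 5.04 to 8.03 CPM (median 6.30) in smoke against 7.82 to 13.7 CPM (median 10.6) in e-cigarette (log2 fold change -0.76, SE 0.14, adjusted p = 0.00248) and was called against e-cigarette 1 and 3 as well (log2 fold change -0.80, adjusted p = 0.0445). Rrm1, a ribonucleotide reductase subunit, ranged over 29.9 to 34.95 CPM (median 31.4) in smoke against 38.9 to 44.98 CPM (median 42.4) in e-cigarette without overlap (log2 fold change -0.40, SE 0.07, adjusted p = 0.00120). The kinase Cdk1 (log2 fold change -0.76, SE 0.22, adjusted p = 0.0241) was called, whereas the proliferation marker Mki67, at 8.87 to 30.5 CPM (median 16.8) in smoke against 17.2 to 47.3 CPM (median 28.9) in e-cigarette, was not (log2 fold change -0.86, SE 0.34, adjusted p = 0.0959). Cdc20b, which helps multiciliated precursors amplify centrioles, and the cyclin gene Ccna1 were among the largest decreases. Cdc20b ranged over 0.493 to 1.18 CPM (median 0.677) in smoke against 1.04 to 3.94 CPM (median 2.41) in e-cigarette (log2 fold change -1.78, SE 0.31, adjusted p = 0.00135; against e-cigarette 1 and 3 log2 fold change -1.76, adjusted p = 0.0269), and Ccna1 over 0.268 to 1.43 CPM (median 0.554) in smoke against 1.16 to 3.08 CPM (median 1.96) in e-cigarette (log2 fold change -1.69, SE 0.37, adjusted p = 0.00533). Both overlapped in a narrow range. Of 24 p53 targets 3 were higher and 3 lower, and the cell cycle inhibitor Cdkn1a was not called (log2 fold change -0.32, SE 0.21, adjusted p = 0.307).

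The chaperones of the cytosol and those of the endoplasmic reticulum went in opposite directions. Cytosolic chaperones refold proteins under heat shock factor control, and reticulum chaperones fold secreted proteins under the unfolded protein response. Of 25 tested heat shock genes, 14 were lower in smoke and none higher (median -0.32). That list also holds the mitochondrial chaperone genes Hspd1, which is among the 14, and Hspe1, which was not called. Of 31 unfolded protein and stress response genes, 14 were higher and 1 lower (median 0.26; 8 higher without overlap). In the smaller comparison, against e-cigarette 1 and 3, the medians were -0.28 with 1 heat shock gene called lower, and 0.26 with 2 reticulum genes called higher and none lower.

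Among cytosolic chaperones, Hsph1 (ENSMUSG00000029657, chromosome 5, 149614287 to 149636376), an exchange factor for Hsp70, ranged over 82.1 to 99.1 CPM (median 87.7) in smoke against 125 to 176 CPM (median 148) in e-cigarette (log2 fold change -0.73, SE 0.09, adjusted p = 0.000419). It stayed called against e-cigarette 1 and 3 (log2 fold change -0.50, adjusted p = 0.0320). Hsp90aa1, the inducible Hsp90, ranged over 290.3 to 373 CPM (median 313) in smoke against 403 to 524 CPM (median 509) in e-cigarette (log2 fold change -0.62, SE 0.09, adjusted p = 0.000538). Hspa8, the constitutive Hsp70, ranged over 926 to 1051 CPM (median 1016) in smoke against 1189 to 1512 CPM (median 1345) in e-cigarette (log2 fold change -0.44, SE 0.09, adjusted p = 0.00384). None of the 3 overlapped between groups. The inducible Hsp70 gene Hspa1a, whose reads can be split with its copy Hspa1b, spanned 11.7 to 19.98 CPM (median 19.3) in smoke against 10.96 to 35.8 CPM (median 22.9) in e-cigarette and was not called (log2 fold change -0.31, SE 0.27, adjusted p = 0.451). Air libraries spread widely in Hsph1, 110.2 to 347 CPM (median 193).

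In the reticulum, Creld2 (ENSMUSG00000023272, chromosome 15, 88819646 to 88826683), a disulphide isomerase-like chaperone, ranged over 74.4 to 104 CPM (median 79.5) in smoke against 33.3 to 60.00 CPM (median 47.2) in e-cigarette (log2 fold change 0.83, SE 0.12, adjusted p = 0.000491). Sdf2l1, which works with BiP, ranged over 45.01 to 61.5 CPM (median 49.9) in smoke against 12.1 to 28.4 CPM (median 22.4) in e-cigarette (log2 fold change 1.29, SE 0.19, adjusted p = 0.000837). Derl3, of the machinery that extracts misfolded proteins, ranged over 25.8 to 36.98 CPM (median 31.99) in smoke against 8.87 to 22.96 CPM (median 12.05) in e-cigarette (log2 fold change 1.18, SE 0.21, adjusted p = 0.00207). The 3 genes had no overlap, and Creld2 (log2 fold change 0.64, adjusted p = 0.0481) and Sdf2l1 (log2 fold change 0.90, adjusted p = 0.0112) were called against e-cigarette 1 and 3, whereas Derl3 was not (log2 fold change 0.85, adjusted p = 0.0923). Hspa5, which encodes BiP, ranged over 688 to 1037 CPM (median 809.9) in smoke against 485 to 693 CPM (median 584) in e-cigarette (log2 fold change 0.49, SE 0.11, adjusted p = 0.00703) with a small overlap, and air spanned 838 to 1863 CPM (median 1232). Calr, Hsp90b1 and Pdia6, further folding proteins, were 1.52-, 1.46- and 1.46-fold higher (adjusted p = 0.00195, 0.00451 and 0.00237). The integrated stress genes Atf4 (log2 fold change -0.19, SE 0.09, adjusted p = 0.146) and Ddit3 (log2 fold change -0.20, SE 0.11, adjusted p = 0.236) were not called, and the asparagine synthetase gene Asns was the lower one (-0.45, SE 0.10, adjusted p = 0.00573). Thyroid follicles secrete heavily and rely on these chaperones, and thyroid marker lists moved in the same direction. E-cigarette 1 and 3 were nearest to smoke in 5 of the 15 called members. The same held for 30.1% of all genes called higher and 20.8% of all called lower. The part of thyroid follicles in the result was not tested.

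Promoters of Creld2, Derl3 and Hspa5 carry the endoplasmic reticulum stress element, CCAAT and CCACG with 9 bases between, in capitals. That of Hsph1 carries a heat shock element, GAA, TTC and GAA with 2 bases between each. On the minus-strand matches of Creld2, Derl3 and Hsph1 the capitals read as the reverse complement.
Creld2 (chr15:88819396-88819695, plus strand): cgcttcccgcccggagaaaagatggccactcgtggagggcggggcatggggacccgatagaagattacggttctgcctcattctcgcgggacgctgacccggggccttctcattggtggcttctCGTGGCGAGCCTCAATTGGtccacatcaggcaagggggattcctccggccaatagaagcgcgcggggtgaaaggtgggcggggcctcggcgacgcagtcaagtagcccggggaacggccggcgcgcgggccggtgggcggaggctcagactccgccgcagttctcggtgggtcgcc
Derl3 (chr10:75893148-75893447, plus strand): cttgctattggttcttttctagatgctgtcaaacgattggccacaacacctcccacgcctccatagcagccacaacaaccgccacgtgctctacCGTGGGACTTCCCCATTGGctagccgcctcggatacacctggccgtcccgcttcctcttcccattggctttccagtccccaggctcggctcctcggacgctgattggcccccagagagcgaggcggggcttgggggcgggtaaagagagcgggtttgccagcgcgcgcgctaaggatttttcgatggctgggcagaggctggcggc
Hspa5 (chr2:34771840-34772139, plus strand): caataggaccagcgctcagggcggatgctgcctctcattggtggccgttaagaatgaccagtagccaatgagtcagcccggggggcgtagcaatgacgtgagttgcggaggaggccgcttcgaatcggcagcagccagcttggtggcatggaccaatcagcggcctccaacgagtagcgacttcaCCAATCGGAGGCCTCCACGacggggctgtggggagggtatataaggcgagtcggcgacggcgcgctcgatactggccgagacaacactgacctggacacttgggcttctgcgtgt
Hsph1 (chr5:149636266-149636565, minus strand): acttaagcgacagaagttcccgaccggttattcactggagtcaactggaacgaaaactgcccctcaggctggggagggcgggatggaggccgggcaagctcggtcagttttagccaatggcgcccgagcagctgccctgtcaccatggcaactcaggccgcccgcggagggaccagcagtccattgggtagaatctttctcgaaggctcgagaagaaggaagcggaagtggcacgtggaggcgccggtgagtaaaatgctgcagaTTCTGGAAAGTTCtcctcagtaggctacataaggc
The element stood at -126 in Creld2, -156 in Derl3 and -65 in Hspa5. It was present in 9 of 28 genes of the list with a window (32.1%) and in 6 of the 12 of them called higher, against 37 of 27025 genes (0.137%). The heat shock element stood at 16 after the start in 1 of the 2 Hsph1 windows and was present in 4 of 20 chaperone genes (20.0%), 3 of them among 11 called lower, against 179 of 27025 genes (0.662%).

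**Figure D3:**
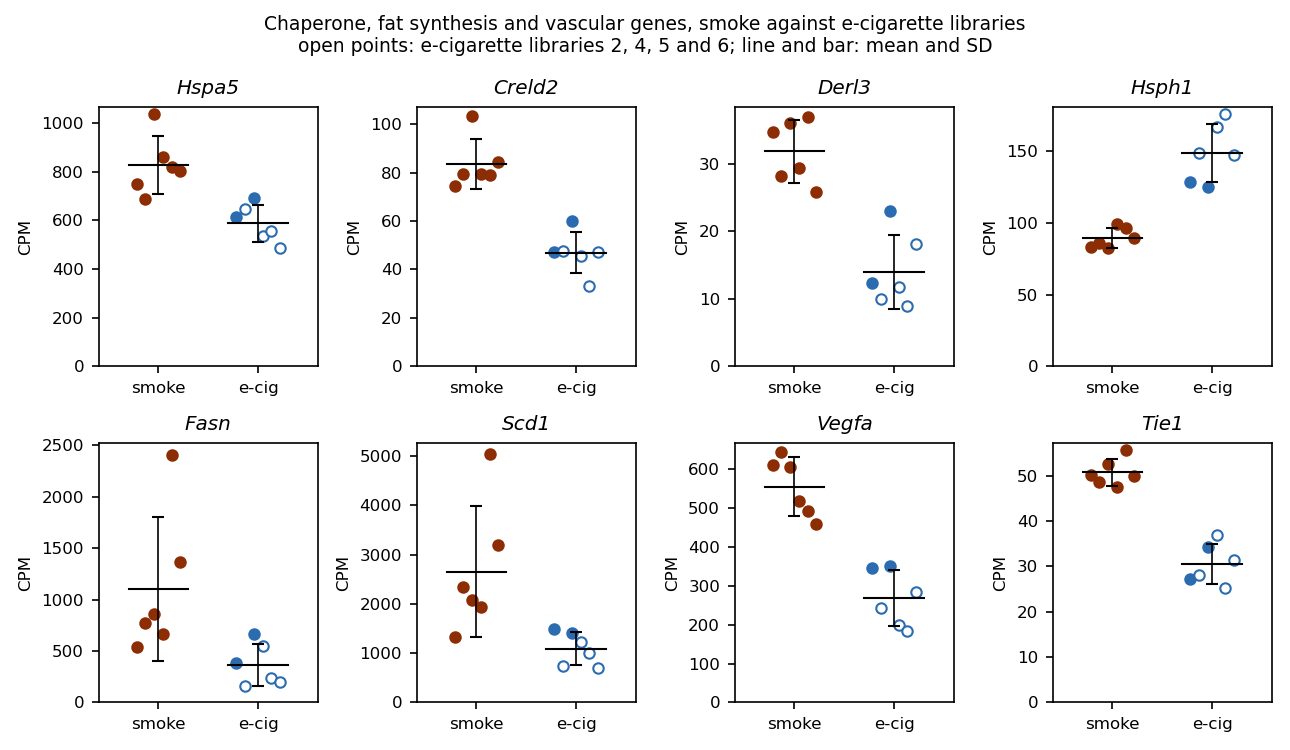
Points are single libraries, with CPM on the y axis starting at 0 and the 2 groups on the x axis; lines and bars are mean and SD over 6 libraries. Creld2, Derl3, Vegfa and Tie1 are higher in smoke and Hsph1 is lower, each without overlap, whereas Hspa5, Fasn and Scd1 overlap.

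In the comparison of all 12 libraries, genes of fat synthesis were higher in smoke and genes of sterol synthesis lower. Of 24 fatty acid and triglyceride genes 12 were called higher and none lower (median 0.49). Fasn, the fatty acid synthase, ranged over 538 to 2409.5 CPM (median 817) in smoke against 163 to 668 CPM (median 308) in e-cigarette (log2 fold change 1.59, SE 0.47, adjusted p = 0.0345), and 5 of the 12 fits without 1 library called it. Scd1, which desaturates fatty acids, ranged over 1319 to 5049 CPM (median 2214) in smoke against 689 to 1489 CPM (median 1118) in e-cigarette (log2 fold change 1.28, SE 0.31, adjusted p = 0.0129). Air libraries lay at 175 to 344 CPM (median 286) for Fasn and 725 to 1089.7 CPM (median 923) for Scd1, nearer to e-cigarette. Elovl3, a fatty acid elongase, ranged over 0.582 to 2.14 CPM (median 1.36) in smoke against 0 to 0.426 CPM (median 0.177) in e-cigarette (log2 fold change 2.71, SE 0.48, adjusted p = 0.00156), and Agpat2, of triglyceride assembly, over 57.1 to 95.5 CPM (median 78.99) in smoke against 39.3 to 58.5 CPM (median 46.6) in e-cigarette (log2 fold change 0.72, SE 0.13, adjusted p = 0.00171). Elovl3 did not overlap, while Fasn, Scd1 and Agpat2 did. The list's median was 0.37 against e-cigarette 1 and 3, with no member called. With 4 tissue scores as covariates, an adipocyte score among them, the list's median fell to about 0 (-0.0083). Log2 fold changes were then -0.11 for Fasn, -0.26 for the carboxylase Acaca and -0.19 for the citrate lyase Acly, with no gene called. As the thyroid score is also among the 4, that fit cannot separate tissue content from exposure.

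Adipocyte markers moved in the same direction: 9 of 20 were higher and none lower (median 0.53, and 0.26 against e-cigarette 1 and 3). Plin1, which coats fat droplets, ranged over 83.8 to 161 CPM (median 99.3) in smoke against 32.97 to 75.3 CPM (median 52.8) in e-cigarette without overlap (log2 fold change 1.03, SE 0.22, adjusted p = 0.00702). Adipoq, which encodes adiponectin, ranged over 80.2 to 109 CPM (median 95.1) in smoke against 44.2 to 92.1 CPM (median 67.9) in e-cigarette (log2 fold change 0.51, SE 0.14, adjusted p = 0.0200). The mean log2 CPM over the adipocyte list was 6.55 to 6.93 in smoke against 5.97 to 6.60 in e-cigarette. The part of fat content in the synthesis genes was not tested. Of 22 cholesterol synthesis genes, 7 were lower in smoke and none higher (median -0.22, and -0.27 against e-cigarette 1 and 3, where 1 was called). Idi1, which isomerises isoprenoid units, ranged over 9.02 to 14.1 CPM (median 11.1) in smoke against 14.5 to 25.8 CPM (median 18.8) in e-cigarette without overlap (log2 fold change -0.76, SE 0.15, adjusted p = 0.00298; against e-cigarette 1 and 3 log2 fold change -0.81, adjusted p = 0.0458).

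Antigen presentation genes were higher in smoke. MHC class I, which shows cell-internal peptides to CD8 T cells, had 11 of 19 genes called higher and none lower (median 0.37, and 0.36 against e-cigarette 1 and 3, where 3 were called). H2-K1, a classical heavy chain, ranged over 501 to 561 CPM (median 531) in smoke against 309.6 to 454 CPM (median 345) in e-cigarette without overlap (log2 fold change 0.54, SE 0.10, adjusted p = 0.00195). Tapbp, which holds class I at the peptide transporter, ranged over 105 to 127 CPM (median 108) in smoke against 62.7 to 88.5 CPM (median 83.2) in e-cigarette without overlap (log2 fold change 0.51, SE 0.09, adjusted p = 0.00213; against e-cigarette 1 and 3 log2 fold change 0.56, adjusted p = 0.0486). H2-Q4 was called in both comparisons (log2 fold change 0.67, SE 0.12, adjusted p = 0.00194 in the first), though reads of H2-Q genes can be split between near-identical copies. The peptide transporter Tap1 spanned 20.7 to 30.4 CPM (median 24.8) in smoke against 15.1 to 24.8 CPM (median 19.1) in e-cigarette (log2 fold change 0.37, SE 0.13, adjusted p = 0.0494). Calr and Pdia3, which fold class I chains, are on this list and on that of the unfolded protein response.

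MHC class II had 4 of 16 genes higher and none lower (median 0.45, and 0.34 with no member called against e-cigarette 1 and 3). Cd74, the invariant chain, spanned 155 to 282 CPM (median 203) in smoke against 87.1 to 215 CPM (median 116) in e-cigarette (log2 fold change 0.71, SE 0.23, adjusted p = 0.0432; against e-cigarette 1 and 3 log2 fold change 0.62, adjusted p = 0.205), while the alpha chain gene H2-Aa was not called (log2 fold change 0.21, SE 0.14, adjusted p = 0.310). Interferon-stimulated genes had 3 of 37 higher and 1 lower. Of 33 cytokine and chemokine genes 4 were higher and 3 lower (median -0.32). Cxcl13, a B cell attractant, ranged over 12.8 to 27.97 CPM (median 18.3) in smoke against 3.42 to 7.69 CPM (median 4.07) in e-cigarette (log2 fold change 1.90, SE 0.25, adjusted p = 0.000419), without overlap, and was called against e-cigarette 1 and 3 (log2 fold change 1.32, adjusted p = 0.0352); air was at 23.8 to 38.8 CPM (median 29.4). Icam1, an adhesion receptor for leukocytes, ranged over 31.9 to 50.04 CPM (median 40.98) in smoke against 18.7 to 25.95 CPM (median 23.99) in e-cigarette (log2 fold change 0.83, SE 0.12, adjusted p = 0.000586). Ccl20, an attractant of dendritic and Th17 cells, ranged over 0.0622 to 1.13 CPM (median 0.513) in smoke against 0.812 to 2.77 CPM (median 1.83) in e-cigarette and fell (log2 fold change -1.56, SE 0.41, adjusted p = 0.0151). Ptgs2, the inducible prostaglandin synthase, was lower too (-1.03, SE 0.21, adjusted p = 0.00337), and Il1b was not called (log2 fold change -0.19, SE 0.39, adjusted p = 0.772).

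Immune cell markers changed in single genes. Cd79b of the B cell receptor ranged over 1.99 to 2.68 CPM (median 2.17) in smoke against 0.116 to 1.29 CPM (median 0.422) in e-cigarette without overlap (log2 fold change 2.13, SE 0.37, adjusted p = 0.00153), as did the T cell kinase Lck, over 1.29 to 2.41 CPM (median 1.61) in smoke against 0.290 to 0.980 CPM (median 0.480) in e-cigarette (log2 fold change 1.63, SE 0.29, adjusted p = 0.00151). With these 2 genes included, 3 of 9 B cell, 1 of 9 T cell, 0 of 7 neutrophil and 1 of 19 macrophage markers were higher, and 0, 0, 1 and 2 were lower. Apart from Lck and Tcf7 (log2 fold change 0.32, not called), all tested T cell markers lay below 0. The B cell markers lay on both sides of 0. The lower neutrophil marker was Ltf, which glands secrete as well. Lyz2, a lysozyme made by macrophages and airway secretory cells, ranged over 3625 to 4161 CPM (median 3933) in smoke against 4765 to 10397 CPM (median 8328) in e-cigarette and was lower in smoke without overlap (log2 fold change -1.04, SE 0.17, adjusted p = 0.000852). Hdc, which makes histamine, was lower as well, over 11.1 to 17.9 CPM (median 13.9) in smoke against 21.1 to 46.97 CPM (median 31.9) in e-cigarette (log2 fold change -1.19, SE 0.16, adjusted p = 0.000461), also against e-cigarette 1 and 3 (log2 fold change -0.90, adjusted p = 0.0299). Kit, the stem cell factor receptor of mast cells, was higher (log2 fold change 0.48, SE 0.15, adjusted p = 0.0316), so the called mast cell genes did not move together.

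Vascular genes were higher in smoke. Of 24 endothelial genes 10 were called higher and none lower, 23 lay above 0, and the median was 0.33 in both comparisons. Tie1, an endothelial receptor of the angiopoietin system, ranged over 47.4 to 55.7 CPM (median 50.1) in smoke against 25.3 to 36.8 CPM (median 29.8) in e-cigarette (log2 fold change 0.73, SE 0.09, adjusted p = 0.000419; against e-cigarette 1 and 3 log2 fold change 0.72, adjusted p = 0.0123). Kdr, the main receptor for VEGF-A, ranged over 65.2 to 96.3 CPM (median 75.5) in smoke against 31.4 to 49.5 CPM (median 43.1) in e-cigarette (log2 fold change 0.87, SE 0.12, adjusted p = 0.000461; log2 fold change 0.80, adjusted p = 0.0320). Emcn, a capillary and venous sialomucin, ranged over 24.5 to 37.2 CPM (median 30.6) in smoke against 12.9 to 19.96 CPM (median 15.1) in e-cigarette (log2 fold change 0.94, SE 0.13, adjusted p = 0.000419). None of these 3 overlapped. Plvap, of the diaphragms of fenestrated capillaries such as those around thyroid follicles, had the largest difference of the list (1.76, SE 0.26, adjusted p = 0.000909). Vegfa (ENSMUSG00000023951, chromosome 17, 46016993 to 46032369), the ligand, ranged over 458 to 644 CPM (median 563) in smoke against 184 to 352 CPM (median 263) in e-cigarette without overlap (log2 fold change 1.05, SE 0.16, adjusted p = 0.000745). Its e-cigarette values were highest in libraries 1 and 3, at 346 and 352 CPM, and the difference from these was log2 fold change 0.67, adjusted p = 0.0460. Air spanned 542 to 747 CPM (median 626). Hif1a, the hypoxia-responsive factor, was higher (log2 fold change 0.91, SE 0.17, adjusted p = 0.00318), whereas of 24 hypoxia and glycolysis genes 6 were higher and 4 lower.

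Matrix genes changed little as a group, with 4 of 40 higher and none lower (median 0.12). Col5a3, a fibril-regulating collagen, ranged over 26.04 to 35.6 CPM (median 29.3) in smoke against 12.99 to 17.98 CPM (median 17.1) in e-cigarette without overlap (log2 fold change 0.88, SE 0.11, adjusted p = 0.000368; against e-cigarette 1 and 3 log2 fold change 0.79, adjusted p = 0.0222). Tnc, a glycoprotein of remodelled matrix, ranged over 53.3 to 92.8 CPM (median 85.2) in smoke against 26.6 to 57.1 CPM (median 39.3) in e-cigarette (log2 fold change 1.002, SE 0.17, adjusted p = 0.00169). Lamb3, a chain of the laminin that anchors basal cells, was higher without overlap (log2 fold change 0.67, SE 0.13, adjusted p = 0.00311). Cartilage had 1 gene higher and 1 lower of 22: the chondrocyte factor Sox9 was higher (log2 fold change 0.66, SE 0.14, adjusted p = 0.00537) and its partner Sox6 lower (log2 fold change -0.55, SE 0.13, adjusted p = 0.00867). Acan, the cartilage proteoglycan, was not called (log2 fold change 0.01, SE 0.50, adjusted p = 0.995).

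**Figure D4:**
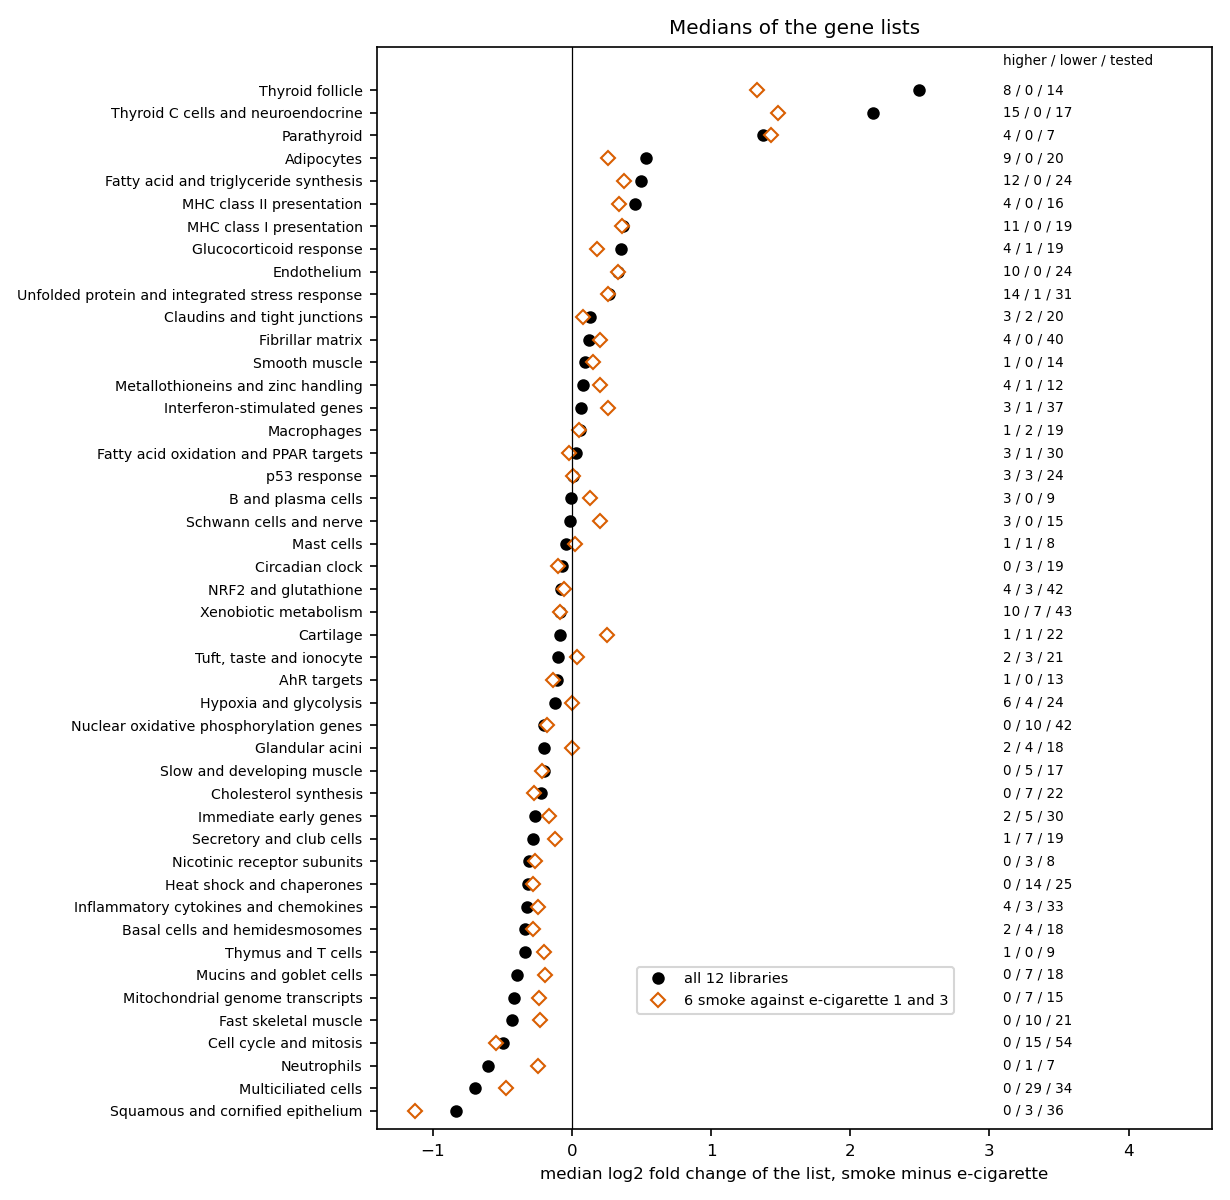
For each gene list with at least 7 tested genes, the x axis gives the median log2 fold change, smoke minus e-cigarette, in all 12 libraries (filled) and against e-cigarette 1 and 3 alone (open); numbers at the right are genes called higher, called lower and tested. Thyroid, C cell and parathyroid lists lie at the top, and multiciliated, cell cycle and squamous lists at the bottom.

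Secretory genes were lower in smoke. Of 19 secretory and club cell genes 7 were lower and 1 higher (median -0.28), and of 18 mucin and goblet cell genes 7 were lower and none higher (median -0.39). Against e-cigarette 1 and 3 the medians were -0.12 and -0.19, with 1 mucin and goblet cell gene called lower, and with 4 tissue scores as covariates the secretory and club cell median was 0.015. Sftpa1, a surfactant collectin that binds microbes, ranged over 3.05 to 5.97 CPM (median 3.95) in smoke against 5.33 to 13.1 CPM (median 9.04) in e-cigarette (log2 fold change -1.14, SE 0.23, adjusted p = 0.00322), and Sftpd, its relative, over 21.04 to 28.8 CPM (median 25.8) in smoke against 26.03 to 55.1 CPM (median 46.99) in e-cigarette (log2 fold change -0.70, SE 0.17, adjusted p = 0.00931). Both overlapped. Agr2, which folds mucins, ranged over 86.03 to 128 CPM (median 119) in smoke against 159.6 to 266 CPM (median 205) in e-cigarette without overlap (log2 fold change -0.91, SE 0.14, adjusted p = 0.000843; against e-cigarette 1 and 3 log2 fold change -0.65, adjusted p = 0.0421). Muc16, a membrane mucin, ranged over 219.8 to 379.8 CPM (median 293) in smoke against 345 to 630.3 CPM (median 440.0) in e-cigarette (log2 fold change -0.66, SE 0.16, adjusted p = 0.00885). The gel-forming mucins Muc5ac (log2 fold change -0.27, SE 0.27, adjusted p = 0.520) and Muc5b (log2 fold change -0.04, SE 0.42, adjusted p = 0.957) and the club cell gene Scgb1a1 (log2 fold change 0.24, SE 0.34, adjusted p = 0.666) were not called. Cckar, a cholecystokinin receptor, was the higher one, over 7.15 to 15.4 CPM (median 11.3) in smoke against 4.17 to 7.97 CPM (median 5.23) in e-cigarette (log2 fold change 1.01, SE 0.19, adjusted p = 0.00259).

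Gland products split. Ltf, the iron-binding lactoferrin, ranged over 11126 to 16149 CPM (median 13467) in smoke against 12792 to 27305 CPM (median 19861) in e-cigarette (log2 fold change -0.60, SE 0.17, adjusted p = 0.0224), and Dmbt1, a secreted scavenger receptor, over 6098 to 10336 CPM (median 7044) in smoke against 8686 to 19152 CPM (median 14626) in e-cigarette (log2 fold change -0.95, SE 0.19, adjusted p = 0.00291); both were lower in smoke with overlap. Bpifb9a, a secreted protein with a lipid-binding fold, and Cst10, a cystatin, were higher, over 41.9 to 155 CPM (median 110.1) in smoke against 14.5 to 68.3 CPM (median 33.2) in e-cigarette (log2 fold change 1.54, SE 0.45, adjusted p = 0.0354) and 1.46 to 15.7 CPM (median 7.80) in smoke against 0.585 to 2.72 CPM (median 1.15) in e-cigarette (log2 fold change 2.43, SE 0.59, adjusted p = 0.0140). The groups overlapped in both. Bpifb9a was called in 3 of 12 fits without 1 library. Of 18 gland genes 2 were higher and 4 lower.

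Stratified squamous genes had the lowest median of the lists with at least 7 tested genes, -0.84, yet 3 of 36 were called lower and none higher. Krt13, a keratin of mucosal suprabasal cells, spanned 1308 to 7828 CPM (median 3066) in smoke against 2837 to 9299 CPM (median 7650.2) in e-cigarette (log2 fold change -0.90, SE 0.46, adjusted p = 0.201), and Sprr3, a cornified envelope protein, spanned 54.7 to 501 CPM (median 98.7) in smoke against 59.7 to 665 CPM (median 547) in e-cigarette (log2 fold change -1.19, SE 0.70, adjusted p = 0.266). Both groups spread widely and overlapped. Serpinb2, a protease inhibitor of the squamous layer, was lower (log2 fold change -1.05, SE 0.24, adjusted p = 0.00928), over 22.6 to 52.7 CPM (median 28.9) in smoke against 39.5 to 87.4 CPM (median 72.6) in e-cigarette. Krt17, a keratin of basal and injured epithelium, ranged over 107 to 149 CPM (median 129) in smoke against 134 to 268 CPM (median 199) in e-cigarette (log2 fold change -0.64, SE 0.14, adjusted p = 0.00526), and with 4 tissue scores its log2 fold change was 0.036; the basal keratin Krt5 was not called (log2 fold change -0.37, SE 0.28, adjusted p = 0.387).

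Muscle and mitochondrial genes were lower in smoke. Of 21 fast muscle genes 10 were lower and none higher (median -0.43), and of 17 slow and developing muscle genes 5 were lower and none higher (median -0.20). Eno3, the muscle enolase, ranged over 1004 to 1417 CPM (median 1101) in smoke against 1283 to 1896 CPM (median 1646) in e-cigarette (log2 fold change -0.48, SE 0.12, adjusted p = 0.00956), and Myog, which drives myoblast fusion, over 1.85 to 3.54 CPM (median 3.14) in smoke against 3.93 to 6.12 CPM (median 5.37) in e-cigarette without overlap (log2 fold change -0.84, SE 0.17, adjusted p = 0.00391). Of 42 nuclear genes of oxidative phosphorylation 10 were lower and none higher (median -0.20), and of 15 genes of the mitochondrial genome 7 were lower and none higher (median -0.42, all 15 below 0). Ndufs1, a complex I subunit, ranged over 207 to 238 CPM (median 216) in smoke against 241 to 313 CPM (median 293) in e-cigarette without overlap (log2 fold change -0.35, SE 0.08, adjusted p = 0.00913). None of these 4 lists had a called member against e-cigarette 1 and 3. Nicotinic receptor subunits, which bind the nicotine of both products, had 3 of 8 lower and none higher. The 3 called subunits belong to the muscle receptor: Chrna1 (log2 fold change -0.43, SE 0.13, adjusted p = 0.0281; 0.00012 with 4 tissue scores), Chrnd (log2 fold change -0.50, SE 0.15, adjusted p = 0.0315) and Chrne (log2 fold change -0.50, SE 0.14, adjusted p = 0.0227). The beta subunit gene of that receptor, Chrnb1, was not called (log2 fold change 0.08, SE 0.09, adjusted p = 0.595).

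Of the 10 largest increases, 5 were genes of the thyroid, C cell and parathyroid lists: Pth, Chga, Kl, Calca and Slc5a5. Of 14 thyroid follicle genes 8 were higher and none lower (median 2.50, and 1.33 against e-cigarette 1 and 3), and of 17 C cell and neuroendocrine genes 15 were higher and none lower (median 2.17, and 1.48). Slc5a5, the iodide pump, ranged over 31.1 to 70.4 CPM (median 45.02) in smoke against 0.745 to 14.4 CPM (median 1.61) in e-cigarette (log2 fold change 3.34, SE 0.70, adjusted p = 0.00823; against e-cigarette 1 and 3 log2 fold change 2.04, adjusted p = 0.0258). Calca, which encodes calcitonin, ranged over 808 to 1369 CPM (median 1079) in smoke against 2.26 to 239 CPM (median 13.7) in e-cigarette (log2 fold change 3.77, SE 1.19, adjusted p = 0.0480; against e-cigarette 1 and 3 log2 fold change 2.28, adjusted p = 0.000796) and was called in 2 of 12 fits without 1 library. Pcsk2, a prohormone convertase, ranged over 42.97 to 54.3 CPM (median 47.5) in smoke against 2.93 to 13.7 CPM (median 3.49) in e-cigarette (log2 fold change 2.89, SE 0.42, adjusted p = 0.00119; against e-cigarette 1 and 3 log2 fold change 1.90, adjusted p = 5.49e-05). None of the 3 overlapped. Air medians were 44.1 CPM for Slc5a5, 1471 CPM for Calca and 53.2 CPM for Pcsk2. Tg itself, at 55834 to 92189 CPM (median 68470.0) in smoke against 83.7 to 28170.0 CPM (median 1743) in e-cigarette, did not overlap either, yet was not called with all 12 libraries (log2 fold change 2.89, SE 1.32, adjusted p = 0.154), while it was against e-cigarette 1 and 3 (log2 fold change 1.41, adjusted p = 0.0132).

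Pth reached 2088 CPM in smoke against at most 5.93 CPM in e-cigarette, but was as low as 0.0547 CPM in another smoke library (log2 fold change 8.10, SE 2.26, adjusted p = 0.0298). Without smoke 2, 4 and 5 its log2 fold change was -0.28. Chga, a granule protein of endocrine cells, ranged over 14.5 to 1378 CPM (median 359) in smoke against 3.83 to 10.6 CPM (median 7.09) in e-cigarette (log2 fold change 6.03, SE 1.36, adjusted p = 0.0114), and Kl, a co-receptor for FGF23, over 0.844 to 49.9 CPM (median 13.3) in smoke against 0.136 to 0.818 CPM (median 0.438) in e-cigarette (log2 fold change 5.33, SE 1.23, adjusted p = 0.0129). Both were highest in smoke 2, 4 and 5. Air medians were 1567 CPM for Pth, 853 CPM for Chga and 24.1 CPM for Kl. Gcm2, the factor that specifies parathyroid cells, had 745 counts over the smoke libraries, of which 370, 229 and 142 lay in smoke 2, 4 and 5, and 3 counts over the e-cigarette libraries, and was not tested. Pnoc, a neuropeptide precursor (log2 fold change 4.15, SE 0.58, adjusted p = 0.000822), the tubulin Tubb1 (log2 fold change 3.95, SE 0.49, adjusted p = 0.000402), the serpin Serpina3j (log2 fold change 3.80, SE 0.65, adjusted p = 0.00151), the homeobox gene Hoxb9 (log2 fold change 3.48, SE 0.48, adjusted p = 0.000455) and the urea transporter Slc14a2 (log2 fold change 3.35, SE 0.63, adjusted p = 0.00410) completed the 10 largest increases. The first 4 of these were called against e-cigarette 1 and 3 too, and none of the 5 is on those endocrine lists. In all 5 the air median lay nearer to smoke than to e-cigarette. Air, smoke and e-cigarette medians, scaled over all 18 libraries, were 9.02, 10.5 and 0.329 CPM for Pnoc and 2.28, 1.73 and 0.0730 CPM for Tubb1. They were 1.72, 2.05 and 0 CPM for Serpina3j, 1.78, 1.64 and 0.121 CPM for Hoxb9, and 14.2, 10.3 and 0.507 CPM for Slc14a2. Thyroid content moved with the groups, and its part in these 5 genes was not tested.

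The other largest decreases were those of Cd177, a neutrophil surface protein also made by epithelia, Itln1, a lectin, and 5 genes of low level. Cd177 ranged over 13.2 to 19.7 CPM (median 15.7) in smoke against 21.00 to 60.5 CPM (median 48.5) in e-cigarette without overlap (log2 fold change -1.46, SE 0.23, adjusted p = 0.00109), and Itln1 over 9.86 to 15.9 CPM (median 12.2) in smoke against 15.9 to 40.2 CPM (median 32.9) in e-cigarette (log2 fold change -1.34, SE 0.20, adjusted p = 0.000843). The proton pump Atp12a (log2 fold change -1.41, SE 0.43, adjusted p = 0.0327), Skint3 (log2 fold change -1.38, SE 0.45, adjusted p = 0.0457), the calcium-binding S100g (log2 fold change -1.38, SE 0.43, adjusted p = 0.0382), the cornified envelope gene Crnn (log2 fold change -1.31, SE 0.42, adjusted p = 0.0375) and Calcoco2 (log2 fold change -1.29, SE 0.35, adjusted p = 0.0180; 0.27 with 4 tissue scores) made up the rest. Atp12a, S100g and Crnn were called in 4 and Skint3 in 3 of 12 fits without 1 library.

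Hormone and metal responses differed in a few genes. Mt1, a zinc-binding metallothionein, ranged over 86.5 to 228 CPM (median 179.7) in smoke against 58.4 to 119 CPM (median 75.7) in e-cigarette (log2 fold change 1.04, SE 0.24, adjusted p = 0.00939), and the zinc importer Slc39a14 over 44.8 to 65.1 CPM (median 56.9) in smoke against 21.3 to 37.1 CPM (median 27.8) in e-cigarette without overlap (log2 fold change 0.96, SE 0.13, adjusted p = 0.000419; against e-cigarette 1 and 3 log2 fold change 0.67, adjusted p = 0.0395). Of 12 metallothionein and zinc genes 4 were higher and 1 lower. Of 19 glucocorticoid-responsive genes 4 were higher and 1, the kinase Sgk1, was lower (log2 fold change -0.50, SE 0.09, adjusted p = 0.00163). Of 30 immediate early genes 2 were higher and 5 lower. Egr1, a zinc finger factor, was lower in both comparisons (log2 fold change -0.90, SE 0.14, adjusted p = 0.000900 in the first), and Jun was higher (log2 fold change 0.45, SE 0.12, adjusted p = 0.0168). Of 19 clock genes 3 were lower and none higher, among them Nfil3 (log2 fold change -0.65, SE 0.16, adjusted p = 0.0108).

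The 297 genes called in both comparisons were 273 higher and 24 lower in smoke. Of the higher ones 16 belonged to the thyroid, C cell and parathyroid lists. Those lists are short, and 16 is a far larger share of their tested genes than 273 is of all 17121. The 24 lower ones comprised 21 with a gene name and 3 without. Their named members were Ect2 and Prc1 of the cell cycle and mitosis list, Cdc20b, the kinetochore gene Knl1, the nuclear import factor Kpna2, the cilium genes Drc1, Iqcg and Wdr78, and Ccdc146, Ccdc170, Aldh1l2, Hdc, Idi1, Kcnrg, Serpinb11, Egr1, Agr2, Gp2, Abra, Tfrc and Hsph1. Knl1, which anchors microtubules at kinetochores, fell by 1.24 on the log2 scale (SE 0.24) with all 12 libraries and by 1.48 against e-cigarette 1 and 3. Iqcg, a component of the dynein regulatory complex, fell by 0.90 (SE 0.12) and by 0.67. Tfrc, the transferrin receptor, fell by 0.58 (SE 0.08) and by 0.57. Gp2, a secreted glycoprotein that binds bacteria, averaged 847 CPM after smoke and 1584 CPM after e-cigarette aerosol, and fell by 0.90 (SE 0.12) and by 0.61. Adjusted p-values of these 4 were 0.000419 to 0.00245 with all 12 libraries and 0.0340 to 0.0495 in the smaller comparison.

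**Figure D5:**
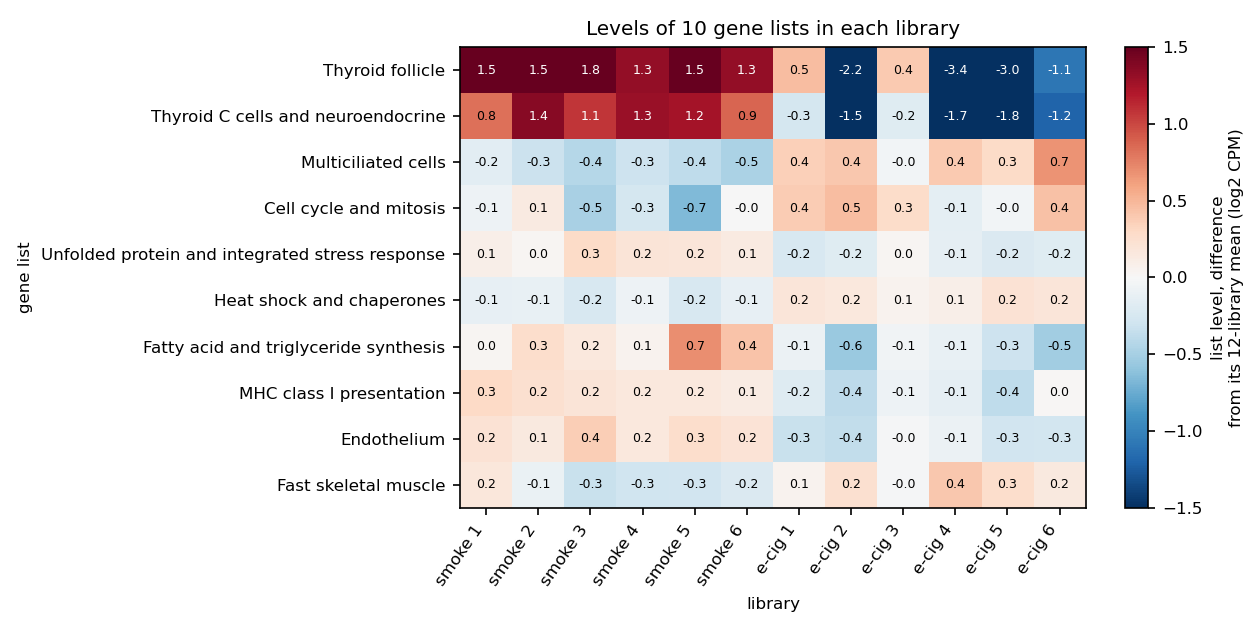
Each cell gives the mean log2 CPM of a gene list (rows) in 1 library (columns), as a difference from its mean over the 12 libraries; colours end at 1.5. Thyroid and C cell lists fall furthest in e-cigarette 2, 4, 5 and 6, the multiciliated list lies below 0 in 6 of 6 smoke libraries, and e-cigarette 3 sits at -0.04 in that row.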

How the data were processed

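The authors deposited a table of raw counts as whole numbers, beside gene coordinates and gene lengths; the lengths were not used. Per the submitters' processing notes, the tools were featureCounts 1.5.0-p3 and STAR, whose version is not stated, with builds GRCm38 and mm10. Strand setting and annotation release were not given in the sources used here. Reads of overlapping antisense genes therefore cannot be separated. Per the labels' protocols, 1 µg of total RNA per sample entered an NEBNext Ultra RNA library kit. Columns were matched to samples by title, with 0 left over. No batch is named in the labels.

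Genes were kept by edgeR's filterByExpr over the 12 libraries (minimum count 10, minimum total 15). Smoke was compared with e-cigarette by the quasi-likelihood F test of edgeR 4.0.16 (TMM factors, robust, R 4.3.3), with Benjamini-Hochberg adjustment over all tested genes; called means an adjusted p below 0.05. SE derives from the F statistic, CPM is scaled by TMM library sizes, and log2 CPM for list levels uses a prior count of 2. Shares of counts were compared by exact permutation over the libraries. Library pairs within a group differed beyond sampling noise (chi-square over degrees of freedom of 18.6 to 106 in 30 pairs), so none was counted as a duplicate. On simulated counts for 17121 genes (16935 tested), smoke versus e-cigarette, recovery was 48% at 1.5-fold, 82% at 2-fold and 95% at 4-fold, and 5 unchanged genes were called. Genes were simulated independently, without shared tissue content, so these rates do not measure calls that tissue content brings in the real libraries.

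The members and the 50 gene lists (1111 of 1113 symbols found, 1005 genes tested) were chosen with earlier results of these data known. Genes were named by rule: the 10 largest increases and 10 largest decreases among called protein-coding genes that averaged 1 CPM or more in a group and the same sign in all 12 fits without 1 library, excluding unnamed models and receptor segments; up to 2 called genes with the smallest p per list; and a set of fixed genes. The same rule applied to genes called with the thyroid score as covariate gave none. Further list members, those of the overlap of both comparisons included, were chosen after their values were seen, and not every gene the rule gave is described; some are not reported here. Alternatives were DESeq2 1.42.0, voom in limma 3.58.1, other scalings and filters, a 3-group model, a replicate block, tissue scores as covariates, a stricter threshold, single libraries left out, e-cigarette libraries with Tg under 1% left out, and, added after seeing the data, smoke libraries with Pth above 100 CPM left out. Motifs were searched in RefSeq promoter windows.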

Additional observations from a re-analysis of the deposited data

Results flagged for a closer look

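In 13 of 376 groups of 6 libraries, 1 library lay far from the other 5 relative to the group's range; chance gives about 1 group in 20. E-cigarette 3 stood apart in 4: it was lowest in the chaperone genes Hsp90aa1 (403 CPM) and Dnaja1 (118 CPM) and in the dynein gene Dnah5 (50.6 CPM), and highest in the clock output gene Dbp (141 CPM). E-cigarette 4 was lowest in Serpinb2 (39.5 CPM). E-cigarette 6 was lowest in Hmox1 (11.4 CPM) and in the interferon-induced Ifit2 (7.02 CPM), and e-cigarette 2 in the clock gene Per1 (53.8 CPM). Among smoke libraries, smoke 3 was lowest in Sox6 (28.9 CPM) and in Hspa1a (11.7 CPM), whose reads can be split with Hspa1b, and highest in the granule gene Chgb (19.3 CPM). Smoke 1 was highest in Foxj1 (68.1 CPM), and smoke 6 lowest in Sftpd (21.0 CPM).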

How the results depend on the processing

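Scaling, filter, DESeq2, voom and the 3-group model gave 2897 to 4050 called genes, and single libraries left out gave 2551 to 3774 (1523 to 2195 higher, 1021 to 1579 lower; 1668 to 2381 genes without overlap; Tg share difference 5.94 to 6.69 percentage points, mitochondrial -1.64 to -1.11). With a thyroid score, and with 4 composition scores, 0 genes were called (0 higher, 0 lower). Thyroid level did not overlap between the groups and its score is in both fits, so neither can separate it from exposure. An adjusted p below 0.01 left 1596 genes (1057 higher, 539 lower). Without the e-cigarette libraries with Tg under 1%, 312 were called (285 higher, 27 lower) and 3230 did not overlap; without the smoke libraries with Pth above 100 CPM, 1201 were called (826 higher, 375 lower) and 2911 did not overlap. These smaller sets test fewer samples. The replicate numbers did not pair the libraries (correlations of same-numbered deviations -0.47 to 0.17; 0 of 6 matched their own number best), and the fit with the replicate block called 3317 genes.

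Of the 3455 called genes, 41 had the opposite sign with the thyroid score, 220 with 4 composition scores, and 0 or 1 in each other fit. Among the genes whose values were tabulated for the text, some log2 fold changes turned direction (genes without a call in either fit are left out where they moved by less than 1 SE). With the thyroid score these were Scgb1a1 (-0.63), Il1b (0.21), Muc5ac (0.21), Tg (-0.96) and Pax8 (-0.74). With 4 composition scores they were Calcoco2 (0.27), Scgb1a1 (-0.12), Chrna1 (0.00012), Ckm (0.029), Gclc (0.13), Krt17 (0.036), Muc20 (0.17), Muc5ac (0.19), Tg (-1.07), Ddit3 (0.19), Fasn (-0.11), Acaca (-0.26), Acly (-0.19) and Pax8 (-0.60). Without the e-cigarette libraries with Tg under 1%, Scgb1a1 was at -0.12 and Muc5ac at 0.13; without the smoke libraries with Pth above 100 CPM, Pth was at -0.28; with voom, Muc5b was at 0.42. List medians that turned and moved by more than the spread between libraries were, with the thyroid score, T cells 0.078, mast cells 0.22, cytokines 0.058, cartilage 0.68, claudins -0.073, tuft cells 0.041, Schwann cells 0.25 and hypoxia 0.019; with 4 scores, fatty acid synthesis -0.0083, secretory cells 0.015 and glucocorticoid response -0.071; with voom, tuft cells 0.0029; and against e-cigarette 1 and 3, tuft cells 0.035, Schwann cells 0.20 and hypoxia 0.0029. Against e-cigarette 1 and 3, medians that changed sign within that spread were those of cartilage (0.25), B cells (0.13), mast cells (0.022), gland genes (0.00090), fatty acid oxidation (-0.023) and erythroid genes (-0.52). The cause was not tested. Genes of a few CPM, such as Cyp1a1 and Ahrr, rest on few counts per library.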

Other observations

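Several gene groups that the comparison left largely apart can be stated by count. Claudins and tight junction genes had 3 of 20 higher and 2 lower in smoke; Cldn2, a pore-forming claudin, ranged over 46.5 to 58.9 CPM (median 54.8) in smoke against 62.1 to 101 CPM (median 83.9) in e-cigarette without overlap (log2 fold change -0.63, SE 0.11, adjusted p = 0.00109). Tuft, taste and ionocyte genes had 2 of 21 higher and 3 lower; the sodium channel subunit Scnn1b ranged over 55.8 to 76.2 CPM (median 61.9) in smoke against 7.13 to 35.4 CPM (median 10.3) in e-cigarette without overlap (log2 fold change 1.98, SE 0.38, adjusted p = 0.00468) and the proton pump subunit Atp6v0d2 over 4.84 to 9.47 CPM (median 6.04) in smoke against 1.01 to 2.94 CPM (median 1.18) in e-cigarette (log2 fold change 2.08, SE 0.28, adjusted p = 0.000419). Both were also called against e-cigarette 1 and 3 (log2 fold change 1.09, adjusted p = 0.00794 and log2 fold change 1.42, adjusted p = 0.0483).

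Fatty acid oxidation genes had 3 of 30 higher and 1 lower. Schwann cell genes had 3 of 15 higher and none lower, among them S100b (log2 fold change 0.67, SE 0.17, adjusted p = 0.0155) and Pmp22 (log2 fold change 0.24, SE 0.07, adjusted p = 0.0293). Smooth muscle had 1 of 14 higher, the myosin kinase Mylk (log2 fold change 0.55, SE 0.18, adjusted p = 0.0407). Erythroid genes had 0 of 5 called by edgeR.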
